A study of Mus musculus with 36 samples.

Results

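The genomic windows around the Hedgehog genes Ptch1, Gli1, Hhip and Gli2 were followed through H3K27ac peak lists of mouse forelimbs. The mark is an acetylated lysine of histone H3 found at active promoters and enhancers, and it was profiled by chromatin immunoprecipitation and sequencing (ChIP-seq). The 4 windows were set by position in the mm9 assembly. They run on chromosome 13 from 63400000 to 63900000 (Ptch1, 500 kb), on chromosome 10 from 126700000 to 126850000 (Gli1, 150 kb), on chromosome 8 from 82300000 to 82700000 (Hhip, 400 kb) and on chromosome 1 from 120500000 to 121100000 (Gli2, 600 kb). A consensus region is a stretch covered by peaks of at least 2 libraries. The windows hold 76 of the 63594 consensus regions, and 1007 of the 732259 deposited peaks. Of the 76 regions, 27 lie in the Ptch1 window, 8 in the Gli1 window, 7 in the Hhip window and 34 in the Gli2 window.

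The libraries are from forelimbs pooled from FVB embryos at embryonic day 11.5, with no treatment. There were 4 wild-type (WT) libraries, 4 of the enhancer knockout mm1179, and 2 of each of the enhancer knockouts hs1586, hs72, hs1262, hs1467 and hs1603, 18 in all. Each knockout line lacks the limb enhancer it is named after, and mm1179 and hs1586 are both limb enhancers of Gli3. The comparison asks whether loss of a Gli3 enhancer is met by a change of H3K27ac at genes that respond to Hedgehog signalling. The number of embryos in a pool is not given in the sources used here, and nothing says that replicates came from separate litters. P-values measure the spread between these libraries, which may be technical. In pooled tissue, a mark in fewer cells and a weaker mark in all cells cannot be told apart.

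In the limb bud, Sonic hedgehog is secreted from the posterior margin and patterns the digits. It binds the receptor Ptch1, which otherwise holds the pathway silent, and the signal then reaches the zinc finger factors Gli2 and Gli3. Gli2 serves mainly as an activator and Gli3 mainly as a repressor that is cut from its full-length form when the ligand is absent. Ptch1, Gli1 and Hhip are direct transcriptional targets of the pathway. Gli1 is an activator that adds to the response, and Hhip is a membrane protein that binds and sequesters the ligand.

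The peak lists name no genes, and the RefSeq table at hand is of GRCm38.p6, another build than mm9. A peak is therefore placed in a window and not assigned to a gene or a promoter. In GRCm38.p6, a stretch as long as the window and centred on the gene holds 2 other protein-coding genes for Ptch1 (Fancc and Aopep), 9 for Gli1 (among them Arhgap9, Inhbe, Inhbc and Ddit3), 0 for Hhip and 1 for Gli2 (Tfcp2l1). Peaks in the short, gene-rich Gli1 window can belong to many genes, whereas the Hhip window has no other coding gene near its centre.

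The promoter sequences of the members show what kind of start these genes have, since starts rich in CpG dinucleotides often carry the mark. RefSeq promoters (GRCm38.p6) were matched by symbol for 3 of the 4 members, Ptch1, Hhip and Gli2. The 250 bases before the start are printed from 5′ to 3′ on the gene's strand, the minus strand in each case, with CpG dinucleotides in capitals. They lie at chr13:63565736-63565985 for Ptch1, chr8:80058009-80058258 for Hhip and chr1:119053620-119053869 for Gli2.
Ptch1: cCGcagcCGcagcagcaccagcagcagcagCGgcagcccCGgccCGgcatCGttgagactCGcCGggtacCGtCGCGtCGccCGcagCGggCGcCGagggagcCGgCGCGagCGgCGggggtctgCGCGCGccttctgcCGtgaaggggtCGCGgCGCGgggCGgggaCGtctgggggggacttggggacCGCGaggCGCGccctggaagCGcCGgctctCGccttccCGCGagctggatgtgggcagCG
Hhip: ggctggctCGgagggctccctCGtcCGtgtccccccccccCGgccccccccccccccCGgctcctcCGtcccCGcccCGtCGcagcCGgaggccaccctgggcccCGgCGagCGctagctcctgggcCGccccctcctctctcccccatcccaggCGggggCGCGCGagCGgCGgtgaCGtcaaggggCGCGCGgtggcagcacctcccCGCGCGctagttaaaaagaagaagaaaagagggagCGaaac
Gli2: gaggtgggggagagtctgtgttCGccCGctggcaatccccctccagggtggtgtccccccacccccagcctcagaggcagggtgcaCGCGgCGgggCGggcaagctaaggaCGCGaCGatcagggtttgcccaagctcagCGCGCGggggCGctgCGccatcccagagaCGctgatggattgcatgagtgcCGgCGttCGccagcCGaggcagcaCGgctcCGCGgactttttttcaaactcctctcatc

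The Ptch1 promoter holds 41 CpG, that of Hhip 28 and that of Gli2 22, against a median of 6 over 32851 promoters of the same length. At least as many CpG as in Ptch1 are found in 1.09% of those promoters, as many as in Hhip in 7.61% and as many as in Gli2 in 14.8%. The GLI consensus GACCACCCA was searched on both strands with at most 1 mismatch. It matched none of these 3 stretches and 5.79% of all promoters, and its exact form matched 0.225% of all promoters. The search says nothing of GLI binding, which is known to occur at distant sites as well. All 3 genes start in DNA with more CpG than the median promoter, while their windows differed in the number of marked regions.

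The lists differ by run. A tag in the name of each deposited list divides the libraries into 4 groups, called runs here. That the tag marks a sequencing run is inferred, and no sample label states it. In run 1 are replicates 1 and 2 of WT and of mm1179. Run 2 has their replicates 3 and 4, with hs72 (2 libraries). For hs1586, hs1262, hs1467 and hs1603, replicate 1 is in run 3 and replicate 2 in run 4, without WT, so that in these lines a difference from WT cannot be told apart from one between runs. Lists of run 3 are short (26550 to 32472 peaks) with wide peaks (means of 2801 to 3374 bp). Those of run 4 are long (54375 to 58753 peaks). Runs 1 and 2 have 30719 to 45267 peaks. Read depth is unknown, since the lists hold no counts, and a missing peak means that no call was made. Scores pile up at 3100, which 5.59% to 6.37% of the peaks of run 4 reach, so that a peak there cannot rank above a percentile of 96.5 to 96.9 unless its score is above 3100. The positions of the deletions were not at hand, so stretches without peaks in 1 line alone were not matched to them, and hs1262 had 0 such stretches. The longest stretch with peaks in all libraries but those of mm1179 was 3 kb on chromosome 13 from 15434001 to 15437000, and for hs1586 it was 2 kb on the same chromosome from 15640501 to 15642500. In the 4 windows, mm1179 and hs1586 had 0 such stretches, and also 0 stretches with peaks in their libraries alone. Genome-wide, mm1179 had 3 of the former kind and 0 of the latter, and hs1586 had 1 and 261.

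Marked regions were denser in the windows of Ptch1, Gli1 and Gli2 than in the Hhip window. The density over the genome was not computed. There were 5.40 consensus regions per 100 kb in the Ptch1 window, 5.33 in the Gli1 window, 5.67 in the Gli2 window and 1.75 in the Hhip window. In WT, peaks covered 13.6% ± 2.4 of the Ptch1 window, 9.59% ± 1.62 of the Gli1 window, 10.8% ± 1.5 of the Gli2 window and 0.747% ± 0.513 of the Hhip window (SD, n = 4 each). Of the 76 regions, 21 were called in all 18 libraries, where 16.5% of all regions were, and 29 in all 4 WT libraries, where 36.4% of all regions were. The 21 were 10 in the Ptch1 window, 2 in the Gli1 window, 9 in the Gli2 window and 0 in the Hhip window. Without run 3 the count was 27, where 29.9% of all regions were called in those 14 libraries. The 27 were 12, 3, 12 and 0 in the same order.

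**Figure D1:**
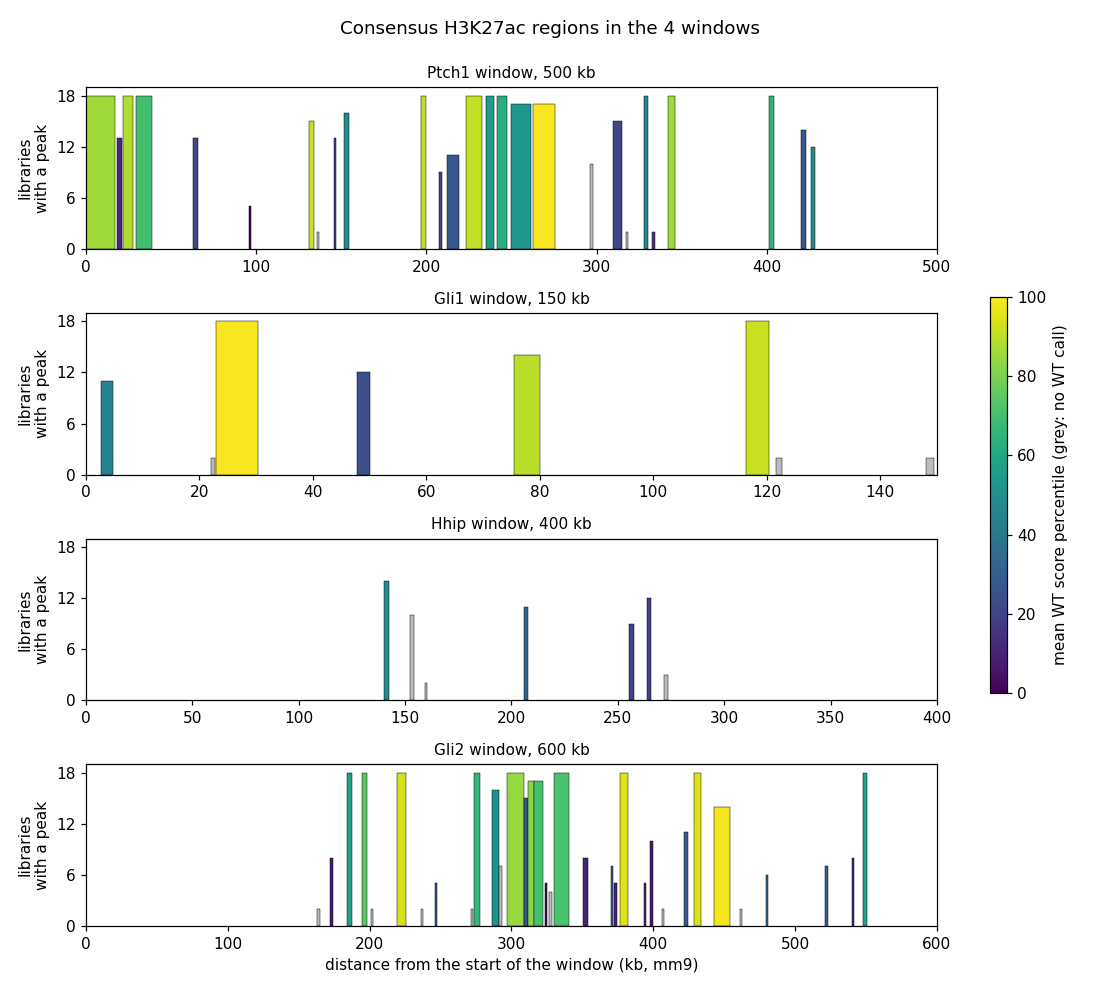
Consensus regions along each window, with the distance from the start of the window in kb on the x axis and the number of the 18 libraries with a peak on the y axis. The colour gives the mean score percentile over those WT lists that have a peak there, with grey where none has. The Hhip window has no region called in more than 14 libraries.

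Regions are numbered along each window, so that Ptch1-18 is the 18th region of the Ptch1 window. The strength of a region in a list is given as a percentile, the rank of its highest peak score among all peaks of that list.

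In the window of Ptch1, the receptor, the strongest region was Ptch1-18, on chromosome 13 from 63662539 to 63675842 (13.3 kb, mm9). Its percentiles in WT replicates 1 to 4 were 99.1, 99.1, 99.4 and 99.2. In mm1179 they were 99.2, 99.5, 99.1 and 98.5, and in hs1586 95.04 and 96.5. The score was at the 3100 ceiling in all 14 libraries outside run 3 and in 0 of 4 in run 3. WT and mm1179 overlapped. In run 3, hs1586 lay between the other libraries, and in run 4 all libraries were tied at the ceiling. The peaks over this region were 10.6 ± 0.6 kb long in WT (SD, n = 4), 10.9 ± 1.1 kb in mm1179 (SD, n = 4), and 9.41 and 13.03 kb in hs1586. In run 3, hs1262 reached 96.8, hs1467 82.3, and hs1603 had no peak.

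Ptch1-18 stood at the end of a dense block. The regions Ptch1-14 to Ptch1-18 follow each other on chromosome 13 from 63623040 to 63675842, and they include Ptch1-14 (9932 bp) and Ptch1-17 (11835 bp). Ptch1-14 was called in all 18 libraries, at 83.6, 91.8, 91.8 and 94.8 in WT and 91.6, 85.4, 91.0 and 90.6 in mm1179. Ptch1-17 was weaker and more variable, with percentiles of 52.6, 37.0, 66.3 and 55.02 in WT. In mm1179 it had 31.9 in replicate 1, no peak in replicate 2, and 60.8 and 67.3 in replicates 3 and 4. The run 2 libraries of mm1179 were thus higher than the run 1 libraries, and the genotypes overlapped.

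The widest region of the 4 windows was Ptch1-1, at the edge of the Ptch1 window (29741 bp, on chromosome 13 from 63387039 to 63416779). Its peaks came as 4 to 8 pieces in WT and as 5 pieces in each mm1179 library. Their summed length was 16.0 ± 4.1 kb in WT (SD, n = 4) and 15.0 ± 5.2 kb in mm1179 (SD, n = 4). In hs1586 replicate 1, of run 3, 1 peak of 29.3 kb spanned the region, at a percentile of 59.4. The other run 3 lists had 4 to 6 pieces here, and hs1586 replicate 2 had 5 pieces of 22.7 kb in sum.

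The third-ranked region of the window in WT, Ptch1-11 (3134 bp), was called in all 18 libraries at 88.1 to 93.8 in WT and 88.9 to 91.1 in mm1179. Second was Ptch1-7 (3249 bp, from 63531003 to 63534251), at 91.2 to 93.1 in WT and 88.7 to 93.4 in mm1179. In run 3 it was called in hs1467 alone, at 59.3, and hs1586, hs1262 and hs1603 had no peak. In run 4 it was at or above the score ceiling in 4 of 4 libraries. The regions with the largest mm1179 minus WT differences were Ptch1-16, which was higher in mm1179, and Ptch1-10, which was lower. Both overlapped between the genotypes, with 32.3 to 81.6 in WT and 50.4 to 76.0 in mm1179 at Ptch1-16. At Ptch1-10 the WT values were 27.1, 55.8 and 58.8, with no peak in replicate 3. In mm1179 they were 6.41, 38.6 and 40.3, with no peak in replicate 2.

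The window of Hhip, the ligand trap, held no region called in all 4 WT libraries. The most often called was Hhip-1 (2177 bp, on chromosome 8 from 82440279 to 82442455), with a peak in 14 of 18 libraries. In WT its percentiles were 39.7, 44.3 and 59.1 in replicates 1, 2 and 4, with no peak in replicate 3. In mm1179, replicates 1 and 2 had no peak, and replicates 3 and 4 had 46.9 and 50.5. In hs1586 the values were 52.3 and 49.3. In run 1 the region was called in both WT and in neither mm1179 library, and in run 2 in 1 of 2 WT and in both mm1179 libraries. The calls went opposite ways in the runs.

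The other Hhip regions were weaker in WT. Hhip-4 was called in WT replicates 3 and 4 at 28.9 and 36.6, Hhip-6 in the same libraries at 36.0 and 3.50, and Hhip-5, the widest at 2351 bp, in WT replicate 4 alone at 19.5. In mm1179, Hhip-4, Hhip-5 and Hhip-6 were each called in replicates 3 and 4 and in neither run 1 library. Hhip-2 was called in no WT library and in mm1179 replicates 1 and 4, at 19.7 and 0.498. It was called in 10 of the 18 libraries, with calls in every knockout line. No peak of the Hhip window ranked above a percentile of 59.1 in any library, although the promoter printed above has 28 CpG.

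In the window of Gli1, the target and activator, 3 regions were called in all 14 libraries outside run 3. The strongest was Gli1-3 (7456 bp, on chromosome 10 from 126722923 to 126730378). Its percentiles were 99.95, 99.1, 98.6 and 99.2 in WT, 99.9, 98.0, 99.1 and 98.5 in mm1179, and 91.3 and 96.5 in hs1586. It was called in run 3 as well, at 91.3 to 94.3 in 3 libraries and at 47.6 in hs1603. Gli1-6 (4015 bp, from 126816413 to 126820427) was called in all 18 libraries, at 88.9 to 93.6 in WT, 86.8 to 90.9 in mm1179 and 96.2 and 92.7 in hs1586.

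Gli1-5 (4695 bp, from 126775422 to 126780116) was called in all 14 libraries outside run 3 and in none of the 4 in run 3. Its percentiles were 84.2, 91.9, 89.9 and 90.3 in WT, 87.7, 89.1, 82.9 and 84.3 in mm1179, and 96.5 in hs1586 replicate 2. In the last the score was at the 3100 ceiling. The genotypes overlapped. Gli1-1, the region with the largest fall in mm1179, was called in 3 WT libraries at 39.2 to 47.2 and in 2 mm1179 libraries at 44.6 and 29.7. Gli1-4 was called in 2 WT and in all 4 mm1179 libraries, and Gli1-2, Gli1-7 and Gli1-8 were each called in 2 libraries.

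In the window of Gli2, the signal transducer, the strongest region was Gli2-29 (11568 bp, on chromosome 1 from 120942549 to 120954116). Its percentiles were 99.1, 99.1, 96.0 and 99.2 in WT, 99.2, 98.4, 99.1 and 96.1 in mm1179, and 96.5 in hs1586 replicate 2. The peak was 9.50 ± 0.85 kb long in WT and 9.78 ± 0.97 kb in mm1179 (SD, n = 4 each). Like Gli1-5, it had no peak in any of the 4 run 3 libraries.

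Next to it lay Gli2-28 (5328 bp, from 120928625 to 120933952), which was called in all 18 libraries. Its percentiles were 94.0, 94.9, 94.2 and 95.1 in WT, 91.0, 91.5, 93.8 and 94.6 in mm1179, and 98.4 and 96.5 in hs1586. Gli2-23 (5746 bp, from 120876720 to 120882465) had 92.7, 95.1, 96.4 and 96.5 in WT, 91.0, 87.7, 94.5 and 93.7 in mm1179, and 85.3 and 96.5 in hs1586. At Gli2-28 and Gli2-23 the scores of all 4 run 4 libraries were at the ceiling, so the 96.5 of hs1586 is the percentile of the ceiling. A block of wide regions lay before these, on chromosome 1 from 120797036 to 120840859, with Gli2-13 (11703 bp) and Gli2-19 (10914 bp). Gli2-13 had 3 or 4 peaks of 9.01 ± 0.99 kb in sum in WT and 2 to 4 peaks of 8.45 ± 0.72 kb in mm1179 (SD, n = 4 each), and a single peak of 11.4 and 14.01 kb in the hs1586 libraries. The other libraries of runs 3 and 4 also had 1 peak here, except hs1467 replicate 1 with 2.

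The largest fall in mm1179 among all 76 regions was at Gli2-4 (3131 bp, on chromosome 1 from 120694707 to 120697837), which was called in all 18 libraries. Its percentiles were 71.2, 67.2, 75.3 and 82.2 in WT, 40.5, 49.4, 70.2 and 80.3 in mm1179, and 84.2 and 76.3 in hs1586. Both run 1 libraries of mm1179 were below all WT libraries, while those of run 2 lay within the WT range. On shortened lists, defined with the tests, the means were 62.0 in WT and 45.6 in mm1179, a difference of -16.3 (exact permutation p = 0.229). The largest rise of the window, at Gli2-34 (2855 bp, from 121048191 to 121051045), was 2.07 (exact permutation p = 0.943). Its percentiles were 44.6, 63.9, 56.9 and 65.7 in WT and 69.5, 57.4, 19.96 and 71.8 in mm1179, which overlap.

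**Figure D2:**
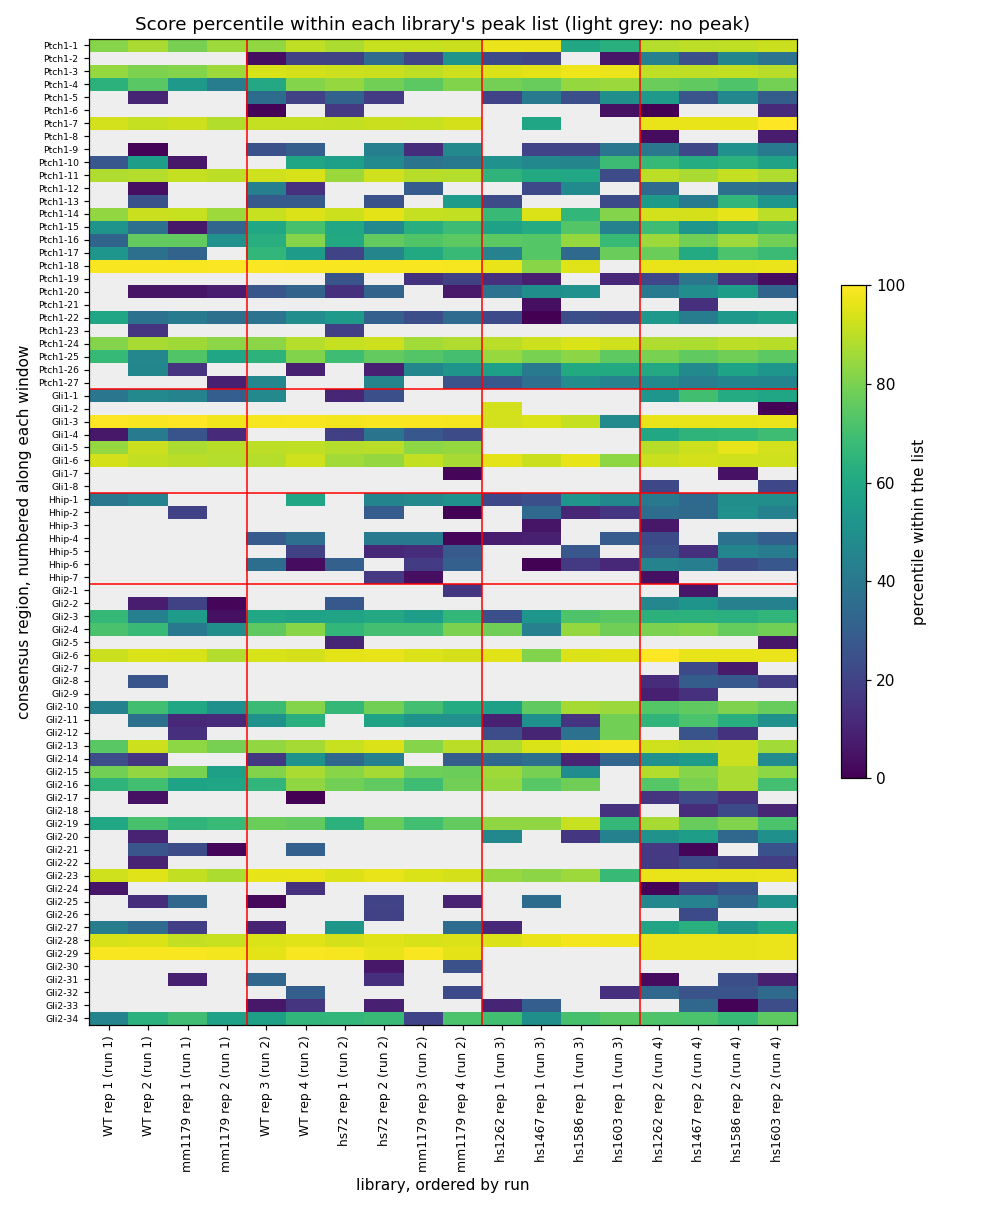
Score percentile of each of the 76 regions (rows, numbered along each window) in each of the 18 libraries (columns, ordered by run), with light grey where no peak was called. Red lines divide the windows and the runs, and the run 3 columns lack Gli1-5 and Gli2-29, which all other libraries have.

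The gaps of run 3 occurred in several genotypes. Of the 27 member regions called in all 14 other libraries, all 4 run 3 libraries missed 2, Gli1-5 and Gli2-29, where 23.5% of such regions genome-wide were missed. At least 1 run 3 library missed 6 of the 27, against 44.8% genome-wide. Among regions with a mean WT percentile of at least 95, all 4 run 3 libraries missed 5.94%, and Gli2-29 was 1 of 4 such members. Among those under 95 they missed 25.2%, and Gli1-5 was 1 of 23 such members. Ptch1-18, of the same strength, was missed by hs1603 alone in run 3. Because hs1586 replicate 1 belongs to run 3, its lack of peaks at Gli1-5, Gli2-29 and Ptch1-7 was compared with the other 3 run 3 libraries, of which 3, 3 and 2 lacked them too.

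**Figure D3:**
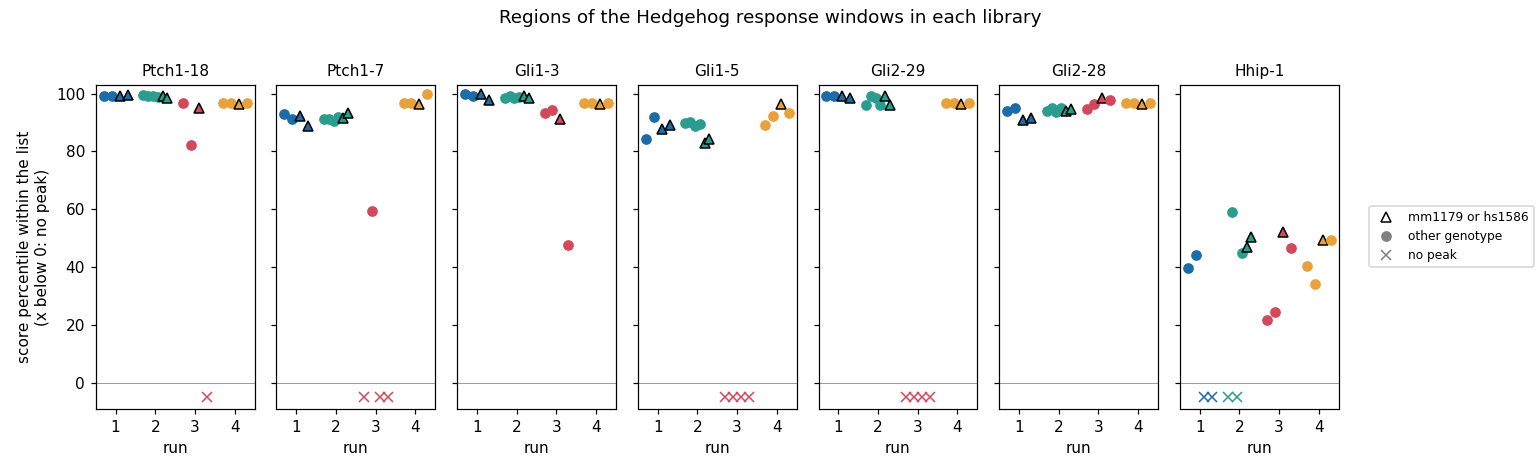
Score percentile of 7 regions in each library by run, with triangles for mm1179 and hs1586, circles for the other genotypes and crosses below 0 where no peak was called. Gli1-5 and Gli2-29 have crosses for all 4 run 3 libraries, and the triangles and circles of run 4 nearly coincide at Ptch1-18, where their scores are at the ceiling.

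The Gli3 enhancer knockouts were compared with the rest within runs. The 6 libraries of mm1179 and hs1586 were set against the other 12, with labels moved within runs in an exact two-sided permutation test of 1440 arrangements. For ranks, each list was shortened to its 26550 highest peaks, the length of the shortest list, and a region without such a peak counted as 0.

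In the Ptch1 window the length covered by peaks was 80.1 ± 26.0 kb in the Gli3 enhancer knockouts (SD, n = 6) and 86.4 ± 20.3 kb in the rest (SD, n = 12). Within runs the difference was 0.461 kb, with exact permutation p = 0.939. The mean percentile over its regions was 33.7 ± 5.1 and 33.5 ± 3.6, with a within-run difference of 0.911 (exact permutation p = 0.213). Neither difference exceeded the spread of the libraries.

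In the Hhip window the knockouts had 6.79 ± 4.48 kb (SD, n = 6) and the rest 6.17 ± 3.79 kb (SD, n = 12). The within-run difference was 1.77 kb (exact permutation p = 0.142), and that of the mean percentile was 1.20 (exact permutation p = 0.533). On shortened lists every Hhip region was at 0 in all run 4 libraries. The percentile test could therefore show no difference for hs1586 replicate 2. Covered lengths in mm1179 were 2.36, 0, 9.12 and 10.1 kb, and in hs1586 8.32 and 10.8 kb. WT had 1.29, 1.77, 3.03 and 5.87 kb, and mm1179 replicates 3 and 4 were above both WT libraries of their run while replicate 2 had no peak at all. The hs72 libraries, of run 2, had 2.60 and 8.72 kb, the latter also above both WT libraries of that run.

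In the Gli1 window the lengths were 15.2 ± 3.0 kb (SD, n = 6) and 15.3 ± 4.4 kb (SD, n = 12), with a within-run difference of -0.150 kb (exact permutation p = 0.851). The mean percentile differed by -0.946 within runs (exact permutation p = 0.613). In hs1262 replicate 1, 1 peak of 7.84 kb spanned Gli1-2 and Gli1-3 and was counted at both. Without that library the difference was -0.0811. In the Gli2 window the lengths were 68.0 ± 19.7 kb (SD, n = 6) and 74.7 ± 17.8 kb (SD, n = 12). The within-run difference was -2.77 kb (exact permutation p = 0.561), and that of the mean percentile was -0.563 (exact permutation p = 0.476).

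In the Gli2 window the differences of the 2 lines had opposite signs. The mm1179 libraries alone had a mean percentile 1.92 lower than the WT and hs72 libraries of runs 1 and 2 (-1.92, exact permutation p = 0.0222, 90 arrangements). In hs1586 alone, against the other libraries of runs 3 and 4, it was 2.16 higher (exact permutation p = 0.25, where 16 arrangements allow no p below 0.0625). In hs1586 replicate 2, 1 peak of 14.01 kb spanned Gli2-13 and Gli2-14 and was counted at both, at 91.8 in its whole list. In run 3, a peak of 6.51 kb was likewise counted at both Gli2-11 and Gli2-12. The part of such peaks in the difference was not tested. The p of 0.0222 is not adjusted and is 1 of many alternatives computed, and the difference between the lines was not tested.

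**Figure D4:**
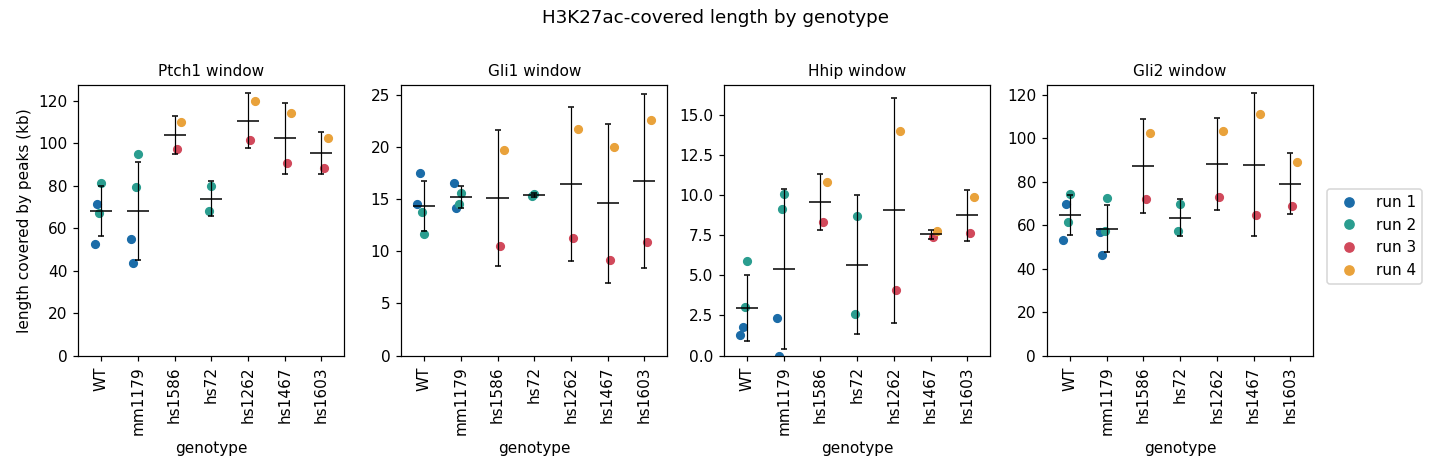
Length covered by peaks in each window (kb) by genotype, with a point per library coloured by run, and the mean and SD of each genotype in black. In each of the 4 lines of runs 3 and 4, the run 4 library has the greater covered length in all 4 windows.

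Across both runs, the ranges of mm1179 and WT overlapped in all 4 windows, in covered length and in mean percentile. With 4 against 4 libraries the exact two-sided permutation test has 70 arrangements and cannot go below 0.0286. The covered length in the Ptch1 window was 68.2 ± 23.2 kb in mm1179 and 68.1 ± 11.9 kb in WT (SD, n = 4 each; exact permutation p = 1). In the Hhip window it was 5.39 ± 4.97 and 2.99 ± 2.05 kb (SD, n = 4 each; exact permutation p = 0.371). In the Gli1 window it was 15.2 ± 1.1 and 14.4 ± 2.4 kb (SD, n = 4 each; exact permutation p = 0.571). In the Gli2 window it was 58.3 ± 10.9 and 64.7 ± 9.3 kb (SD, n = 4 each; exact permutation p = 0.4). The mean percentile on shortened lists differed by -0.455 in the Ptch1 window, -0.718 in the Hhip window, -2.16 in the Gli1 window and -1.99 in the Gli2 window. The exact permutation p values of these were 0.771, 0.686, 0.286 and 0.143.

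In the Gli2 window the overlap in mean percentile lay between runs and not within them. In run 1 mm1179 had 22.6 and 21.7 against 23.1 and 25.1 in WT, and in run 2 it had 23.9 and 24.7 against 25.4 and 27.3. Each mm1179 library was below both WT libraries of its run. With labels moved within runs, the difference of -1.99 had exact permutation p = 0.0556, the smallest that the 36 arrangements can give, so this test could not pass 0.05. In the other windows mm1179 was also below both WT libraries within 1 run, run 1 for Ptch1 and Hhip and run 2 for Gli1. Within the other run of each the mean percentiles overlapped.

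The covered length of the Ptch1 window changed direction between runs. In run 1 mm1179 had 12.6 kb less than WT (-12.6 kb), at 54.97 and 43.7 kb against 52.4 and 71.4 kb, with exact permutation p = 0.667. In run 2 it had 12.8 kb more, at 79.3 and 94.9 kb against 67.4 and 81.2 kb, with exact permutation p = 0.667. With 2 against 2 libraries the test cannot go below 0.333. The whole lists of run 2 covered 97.2 and 115.3 Mb in mm1179 and 81.4 and 101.7 Mb in WT, and those of run 1 80.7 and 62.6 Mb in mm1179 and 75.8 and 86.0 Mb in WT. The part of list length in the difference was not tested. As a share of all bases its list covered, the Ptch1 window took 681, 698, 816 and 823 bases per covered Mb in mm1179 and 692, 830, 828 and 798 in WT, which overlap.

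Region by region, 1 of the 46 member regions in shortened lists separated mm1179 from WT. This was Gli2-28, lower in mm1179, where 1.85% of 36403 regions genome-wide did not overlap, 0.885% lower and 0.961% higher. Its percentiles on shortened lists were 91.9, 92.7, 91.5 and 91.8 in WT and 87.4, 90.1, 91.2 and 90.7 in mm1179, a difference of -2.06. In the whole lists the groups overlapped at this region, as given above. The hs72 libraries, of run 2, had 90.5 and 92.1, the former below all WT libraries. The count of 1 rose to 3 without WT replicate 1 or mm1179 replicate 3, and to 2 without mm1179 replicate 1. The count over all regions rose as well, from 672 to between 1129 and 1690, and was highest without WT replicate 1.

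By calls, 0 of the 39 member regions that could differ between mm1179 and WT had an unadjusted p under 0.05 in Fisher's exact test, against 0.174% of 35098 regions genome-wide, and 0 regions genome-wide passed Benjamini-Hochberg adjustment. A region called in all 4 libraries of one genotype and in none of the other has an exact p of 0.0286, the smallest that this test can give, and no member region was of that kind. With 61 regions at an unadjusted p under 0.05, no p at that floor could pass adjustment over 35098 regions. The lowest p among members, 0.143 in Fisher's exact test, was at Ptch1-5 and Gli2-14. Ptch1-5 (2682 bp, from 63463034 to 63465715) was called in 3 WT libraries, at 10.2, 35.3 and 19.3, in 0 of 4 mm1179 libraries and in both libraries of each other line. Gli2-14 (2453 bp) was called in 4 WT libraries and in 1 of 4 mm1179 libraries. In the Ptch1 window, Ptch1-19 was called in 0 WT libraries and in 2 mm1179 libraries, at 14.5 and 19.9. It was called in 10 of the 18 libraries, with calls in every knockout line. In the within-run test of the Gli3 enhancer knockouts, 1 of 76 member regions was lower at an unadjusted p under 0.05, where 1.13% of all regions were, and 0 were higher, where 1.36% of all regions were. This was Gli2-27, a weak region (2547 bp, from 120921724 to 120924270) with exact permutation p = 0.0486, and 1 after Benjamini-Hochberg adjustment over all regions. On shortened lists it was at 0 in all 6 knockout libraries and in 5 of the other 12, and between 5.48 and 30.2 in the remaining 7. The count of 1 became 0 to 3 when single libraries were left out, with 3 without WT replicate 2. Over all regions the count was then 1311 to 1750, and with all libraries 716 were lower and 863 higher. In the whole lists Gli2-27 had peaks in mm1179 replicates 1 and 4 and in hs1586 replicate 2, at 18.4, 35.5 and 52.3.

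On shortened lists, mm1179 was higher than WT in 14 of the 76 regions, lower in 32 and equal in 30, with a median difference of 0. Over all 63594 regions it was higher in 28.8% and lower in 28.4%, with a median of 0. In the Gli2 window it was higher in 3 and lower in 14 of 34 regions, in the Gli1 window in 0 and 5 of 8, in the Hhip window in 1 and 2 of 7, and in the Ptch1 window in 10 and 11 of 27. These counts are descriptions, since neighbouring regions share libraries.

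Other lines had scattered calls of their own in these windows. In the Ptch1 window, Ptch1-21 (1522 bp, from 63717159 to 63718680) was called in both hs1467 libraries, at 4.03 and 13.7, and in no other library. At the end of Ptch1-17, a stretch of 0.5 kb had peaks in the hs1262 libraries alone. In the Gli2 window, a stretch of 0.5 kb inside Gli2-19 had peaks in all libraries but those of hs72. Genome-wide there were 313 stretches called in hs1467 alone, 433 in hs1262 alone and 30 lost in hs72 alone, so these lines had such stretches at many places. These examples were chosen after their values were seen.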

How the data were processed

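H3K27ac ChIP-seq peak lists of 18 forelimb libraries were used, and the 18 input samples were not analysed here. The submitters' processing notes name CASAVA, bcl2fastq 2.17, cutadapt 1.1, Bowtie 0.12.8, MACS 1.4.2 and the build mm9, with no settings, and use of the inputs in peak calling is not given in the sources used here. The deposited lists give a position and a score per peak, 40 at least. The score is the authors' own value and was used here to rank peaks within a list or to filter them. Percentiles count ties as halfway. Percentiles from whole lists are descriptions, since lists differ in length, and tests used the 26550 highest peaks of each list. An overlap of 1 bp with a peak was enough for a call, and a peak over several regions counted at each of them. Depth is unknown, so no interval for counting error was computed.

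The windows, their members and the tests were chosen with earlier results of these data known. Named regions were the 3 strongest in WT and the widest of each window, those with the largest mm1179 minus WT difference in each direction, those called in every library of 1 of these genotypes and in none of the other (there were 0) and those with a within-run p under 0.05. Others are named for the contrast they give and were chosen after their values were seen. Genes of like pattern and other pathway genes were not named, since peaks were not assigned to genes. The tissue label was not checked against marker genes for the same reason.

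Exact permutation tests over libraries, two-sided, compared the windows. Regions were tested in the same way or, for calls, with Fisher's exact test, and p-values were adjusted over all regions (Benjamini-Hochberg). The within-run difference weights each run by its number of Gli3 enhancer knockout libraries. In 16 window tests no p was under 0.05. Same-numbered WT and mm1179 libraries share a run, and their deviations from the group means correlated at 0.108 to 0.327. Libraries of the same run with different numbers correlated at 0.146 to 0.321, and 1 of 4 WT libraries correlated best with its own number. These values do not set the number apart from the run, so pairing by number was used as an alternative only. No lists were identical. Alternatives were a minimum score of 100, regions of at least 1 library, shares of covered bases, other arrangements of labels, a replicate block and leaving out libraries or run 3. The procedures were tested on simulated data. Software was Python 3.11.15 with numpy 2.4.6, scipy 1.17.1, pandas 2.3.3 and matplotlib 3.10.9. Positions count from 1.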

Additional observations from a re-analysis of the deposited data

Results flagged for a closer look

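In 52 groups of 4 libraries checked, 4 had a library far from the other 3. The nominal rate of this flag is about 1 in 20 groups, and its rate in data of this kind was not measured. At Gli2-29, WT replicate 3 had a percentile of 96.0, and the other WT libraries 99.1 to 99.2. At Ptch1-18, WT replicate 3 had 99.4 against 99.1 to 99.2, which is the percentile of the score ceiling in each list. At Ptch1-7, WT replicate 1 had 93.1 against 91.2 to 91.4. At Ptch1-16, mm1179 replicate 2 had 50.4 against 72.9 to 76.0, and this library had the shortest list of its genotype, 30719 peaks. The part of list length in these values was not tested.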

How the results depend on the processing

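The window results had p-values above 0.05 in every alternative but 1. For the Gli2 percentile, mm1179 alone gave -1.92 with exact permutation p = 0.0222, and hs1586 alone 2.16. Of 459 alternative values, 370 kept direction and call or stayed within 1.5 times, 46 changed direction, 42 counts moved and 1 passed the threshold. The direction is therefore not settled for several differences. The cause of the changes was not tested.

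For the Gli3 enhancer knockouts against the rest, the Ptch1 covered length changed sign as a share of covered bases (-2.30 bases per covered Mb), with labels moved across all libraries (-6.36 kb) and without run 3 (-0.252 kb). The Ptch1 percentile changed sign in whole lists (-0.743) and in mm1179 alone (-0.114). The Gli1 covered length did so as a share (2.166) and in mm1179 alone (0.175 kb). The Gli1 percentile did so with scores of at least 100 (0.573), across all libraries (0.114) and in hs1586 alone (0.105). The Hhip percentile did so in mm1179 alone (-0.291) and without run 3 (-0.233). For Gli2, the covered length did so in hs1586 alone (2.25 kb) and the percentile with scores of at least 100 (0.206).

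With the replicate block, which moves labels within replicate numbers, the Ptch1 covered length became -3.93 kb and that of Gli1 0.394 kb. Regions at an unadjusted p under 0.05 numbered 849, with 0 in the windows, and no other call changed with this pairing.

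For mm1179 against WT, the Ptch1 covered length changed sign as a share (-32.6) and in run 1 (-12.6 kb). The Ptch1 percentile did so with scores of at least 100 (0.301) and in run 2 (0.624). The Gli1 covered length did so with those scores (-0.418 kb), in shortened lists (-0.437 kb) and in run 1 (-0.671 kb). For Hhip the covered length did so in run 1 (-0.349 kb) and the percentile in run 2 (1.28). The separate runs were added after seeing the data.

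With scores of at least 100, regions called differently at an unadjusted p under 0.05 numbered 27 in place of 61, non-overlapping regions 304 in place of 672, and within-run regions 829 in place of 1579, with 0 in the windows. In whole lists 0 member regions failed to overlap, and without run 3 the within-run test had 2 in the windows. Neither of these counts was set against the count over all regions under the same alternative.

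Leaving out single libraries gave -3.62 to 4.20 kb for the Ptch1 covered length of the Gli3 enhancer knockouts and -8.78 to 8.30 kb for that of mm1179, lowest without mm1179 replicate 4 and highest without mm1179 replicate 2. It gave -1.47 to 0.504 for the Ptch1 percentile of mm1179, -0.635 to 0.335 kb and -0.0556 to 1.90 kb for the Gli1 covered lengths, and -0.233 to 1.99 for the Hhip percentile of the Gli3 enhancer knockouts. Counts genome-wide were 134 to 221 by calls, 1129 to 1690 without overlap and 1311 to 1750 within runs, and in the windows 0 to 1, 1 to 3 and 0 to 3. Read depth is unknown, so its part in missing calls was not tested.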
